A study of Mus musculus with 10 samples.

Results

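The natural light eyeball miRNA profile was read from 2 of the 10 libraries of the series, both made from the eyeball. The mice were females of the outbred Kunming stock with a labelled age of 4 weeks, kept in natural light as the untreated control of a blue light experiment, with no genetic change named in the labels. Both titles bear the tag 14d (day 14). They were chosen by their label as control miRNA libraries and are called control A and control B. The labels do not say that A and B came from separate animals, so the spread between them may be technical. All 1978 mature miRNA names of the deposited table were described, and no comparison between groups was made.

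A miRNA is cut from a hairpin-shaped precursor, and each side of the hairpin can give a short mature strand, named 5p or 3p after the side it comes from. One strand is usually loaded into an Argonaute protein and kept, while the other is usually degraded. The ratio of the arms in sequencing counts is only an indirect reading of which strand was retained. How evenly different sequences were captured and counted was not tested, and both libraries could share any such difference. The loaded strand finds target mRNAs mainly by pairing of its seed, the stretch from base 2 to base 8, so miRNAs with the same seed form a family. In the eye, miR-183, miR-96 and miR-182 are known from photoreceptors and other sensory cells, miR-184 from corneal and lens epithelium, miR-204 and miR-211 from pigment epithelium, and miR-124 and miR-9 from neurons and retina.

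Mature sequences of the most abundant miRNAs are shown because a few of them made up most of the profile. They are printed 5′ to 3′ from RefSeq on GRCm38.p6, with the seed in capitals, in falling order of mean share:
miR-183-5p: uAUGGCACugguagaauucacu
miR-184-3p: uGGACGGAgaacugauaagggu
miR-182-5p: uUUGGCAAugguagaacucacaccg
miR-26a-5p: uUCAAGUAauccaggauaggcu
miR-99a-5p: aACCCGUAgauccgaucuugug
miR-148a-3p: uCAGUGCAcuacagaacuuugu
let-7g-5p: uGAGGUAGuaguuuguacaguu
let-7f-5p: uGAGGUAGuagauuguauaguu
miR-9-5p: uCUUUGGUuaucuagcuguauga
miR-204-5p: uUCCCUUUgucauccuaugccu
miR-96-5p: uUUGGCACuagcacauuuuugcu
let-7i-5p: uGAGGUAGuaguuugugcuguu
miR-181a-5p: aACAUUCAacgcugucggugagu
let-7c-5p: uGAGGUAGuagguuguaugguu
miR-126a-3p: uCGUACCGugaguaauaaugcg
miR-21a-5p: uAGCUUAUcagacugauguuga
miR-30c-5p: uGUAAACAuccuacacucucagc
The remaining 3 of the 20 most abundant names were miR-143-3p, miR-30d-5p and miR-124-3p.

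Control A held 8355432 counts and control B held 9442889. Names with a count numbered 1018 in A and 1011 in B, and 580 had at least 10 counts in each library, which is the definition of detected used here. A name at 0 could hold up to 3 counts, a share of 3.59e-05% in A and 3.18e-05% in B, and 845 names were at 0 in both. Intervals and these limits cover counting error only, since the counts carry no molecular identifiers. A chi-square of the counts of A against B was 124 per degree of freedom over 702 names, which sets them against counting noise alone and says nothing of the source of the difference.

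The profile was concentrated in few miRNAs. The 10 with the largest mean share took 56.2% of the counts of A and 54.2% of those of B, and 9 names were enough for 50% of the counts in each library. It took 47 names to reach 90% in each, and 190 in A and 185 in B to reach 99%. At the other end of the scale, 209 names with a mean share of at least 0.01% held 99.2% of the counts of A and 99.3% of those of B. The number of equally abundant miRNAs that would give the same entropy was 45.4 in A and 47.3 in B.

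**Figure D1:**
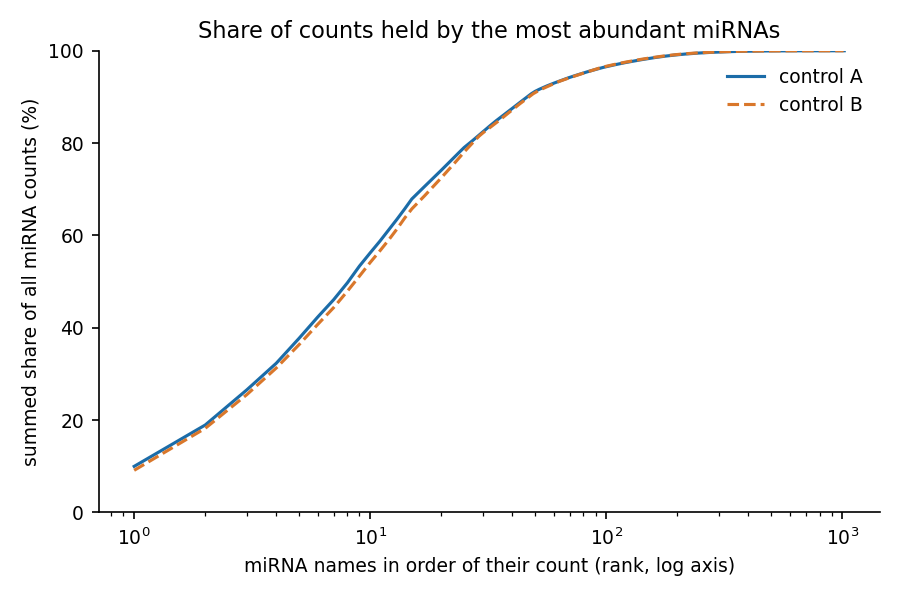
Summed share of all miRNA counts (y axis, percent) held by the most abundant names, ranked by count within each library (x axis, log scale), for control A (solid line) and control B (dashed line). Both lines pass 50% at 9 names and 90% at 47 names.

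miR-183-5p was the most abundant by mean, at 9.98% of the counts of A (exact Clopper-Pearson 95% interval from 9.9591% to 9.9998%) and 9.10% of B (9.08% to 9.11%), a mean of 9.54% ± 0.625 (SD, n = 2). miR-184-3p held 8.96% and 9.12%. miR-182-5p followed at 7.61% and 7.30%. The third of these did not overlap with the other two, whereas miR-183-5p was above miR-184-3p in A and just below it in B, so the leading pair had no settled order.

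The next positions were also shared. miR-26a-5p, a miRNA of a family that many tissues express, held 5.42% of A and 5.77% of B, and miR-99a-5p, whose targets are known to include Mtor, held 5.77% and 5.07%, so their order turned between libraries. miR-148a-3p held 4.62% and 4.40%, below both of these in each library. let-7g-5p at 3.73% and 3.54%, let-7f-5p at 3.65% and 3.61%, and miR-9-5p at 3.62% and 3.27% formed a group in which let-7g-5p and let-7f-5p changed places. miR-143-3p, a miRNA of smooth muscle and fibroblasts, was at 2.89% and 2.97% and stood apart from the names above and below it.

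Below these, miR-204-5p held 2.54% and 2.40% and miR-96-5p 2.49% and 2.35%, with miR-204-5p higher in both libraries by less than the difference between libraries. let-7i-5p was at 2.20% and 2.53%, and miR-181a-5p, a miRNA of retina and brain, at 2.28% and 2.33%. miR-30d-5p held 2.13% and 1.97%. Of the last 5 of the 20, let-7c-5p was at 1.31% and 1.48%, miR-124-3p, the neuronal miRNA, at 1.42% and 1.36%, and the endothelial miR-126a-3p at 1.22% and 1.23%. miR-21a-5p differed by the largest ratio between libraries among the 20, at 1.02% and 1.38%. miR-30c-5p closed the set at 1.15% and 1.16%.

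**Figure D2:**
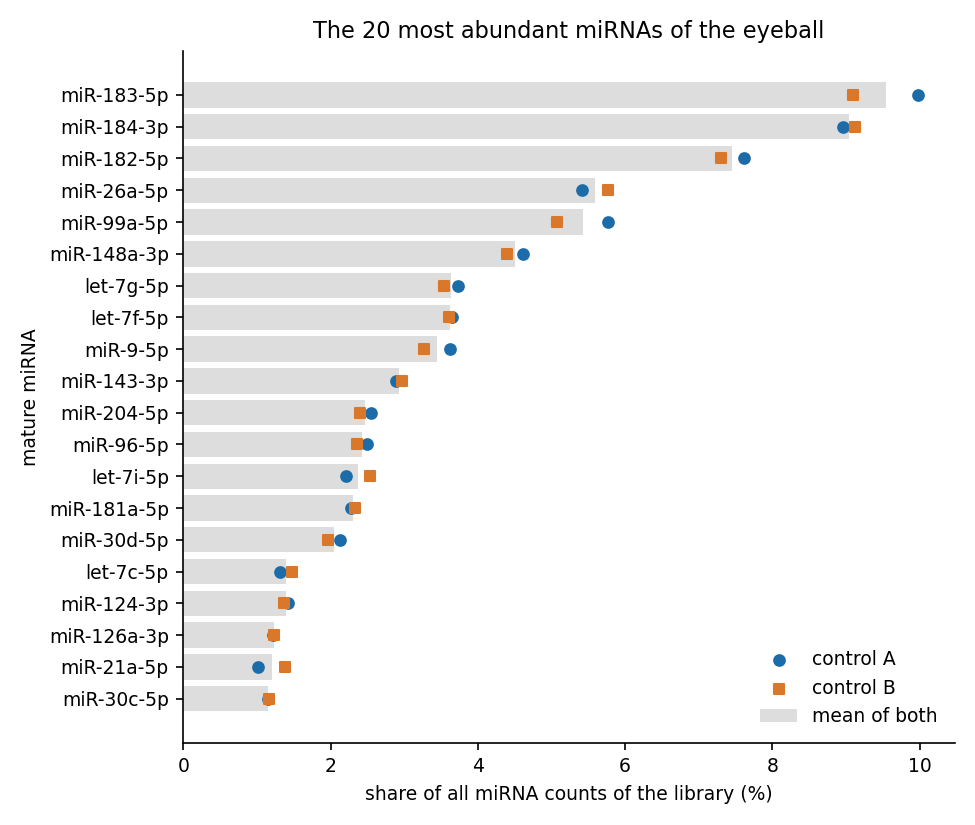
Share of all miRNA counts (x axis, percent) of the 20 most abundant mature miRNAs (y axis), for control A (circles) and control B (squares), with the mean of both as a grey bar. miR-183-5p, miR-184-3p and miR-182-5p lie between 7.30% and 9.98%, and every other name lies at 5.77% or below.

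The positions of these miRNAs in the genome are given on GRCm38.p6. Of the 20 names, 17 matched a RefSeq entry, at 24 positions, and 17 of these positions lay within the span of another annotated gene, whichever strand or exon that is. The mature strands of miR-183-5p (chr6:30169711-30169732), miR-96-5p (chr6:30169506-30169528) and miR-182-5p (chr6:30165962-30165986) all lie on the minus strand within the span of the long non-coding gene Mirc35hg. miR-184-3p comes from the minus strand at chr9:89802263-89802284 and miR-99a-5p from the plus strand at chr16:77598940-77598961, with no other gene spanning either. let-7g-5p lies within the span of Wdr82 (chr9:106178846-106178867, plus strand) and miR-204-5p within that of Trpm3 (chr19:22750610-22750631, plus strand). miR-26a-5p has 2 positions, in the spans of Ctdspl and Ctdsp2, and the counts do not say how many reads came from each.

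Grouping by seed changed the order, because let-7 is spread over many hairpins. The let-7 seed GAGGUAG was the largest family, with 12.8% of the counts of A and 13.2% of those of B over 11 names, of which 10 were detected. No single member carried it: let-7g-5p made up 29.1% of the family in A and 26.8% in B. let-7a-5p held 1.02% and 1.07% of all counts, let-7b-5p 0.422% and 0.485%, let-7d-5p 0.224% and 0.252%, let-7e-5p 0.193% and 0.170%, and miR-98-5p, the let-7 relative outside the let-7 name, 0.0649% and 0.0615%. let-7k had 49 and 45 counts and miR-1961, which has the same seed, had 4 and 7. A pair of let-7 strands is shown with the run that they share in capitals, to show how alike the members are:
let-7c-5p: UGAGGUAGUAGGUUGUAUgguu
let-7a-5p: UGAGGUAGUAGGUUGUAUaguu
The sources used here do not say how mismatches were treated in the authors' counting, so the split among let-7 names is less certain than their sum.

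Most other large families were led by 1 miRNA. miR-183-5p, miR-184-3p, miR-182-5p and miR-9-5p were alone in their seed. The miR-99/100 seed ACCCGUA held 6.74% and 6.002% of the counts, of which miR-99a-5p took 85.6% and 84.5%. The miR-26 seed UCAAGUA held 6.10% and 6.56%, with 88.9% and 88.0% in miR-26a-5p. The miR-148/152 seed CAGUGCA held 4.89% and 4.69%, with 94.5% and 93.8% in miR-148a-3p. Pairs of members are shown with the seed in capitals:
miR-99a-5p: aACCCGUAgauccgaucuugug
miR-100-5p: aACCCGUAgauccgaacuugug
miR-26a-5p: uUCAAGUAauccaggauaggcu
miR-26b-5p: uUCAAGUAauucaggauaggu
The seed UCCCUUU of miR-204 and miR-211 held 3.43% and 3.34%, and miR-204-5p outnumbered miR-211-5p 2.87-fold in A and 2.56-fold in B. The 10 largest families took 67.2% of A and 65.7% of B. Of 398 seeds with a detected name, 344 had only 1. Only names with a RefSeq sequence could be placed in a family, so miR-30d-5p and miR-143-3p are outside these sums. The miR-30 seed GUAAACA held 2.68% of A and 2.66% of B without miR-30d-5p and miR-30b-5p. Of these 2 names, miR-30d-5p held 2.13% and 1.97%, and miR-30b-5p had 14603 and 15630 counts. The place of the miR-30 family among the largest is thus not settled.

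Most counts lay in strands that start with U. Among the 485 detected names with a sequence, 196 (40.4%) began with U, and these held 81.7% of the counts of A and 82.0% of those of B that the 485 carried. Names beginning with A were 27.2% of the names and 14.8% and 14.7% of the counts. Names beginning with G were 10.3% of the names and 0.613% and 0.571% of the counts. A length of 22 bases was found in 55.9% of the names and 70.2% and 70.9% of the counts. Names of 25 bases were 4, among them miR-182-5p, and held 8.45% and 8.15% of the counts.

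The profile was set beside lists of miRNAs known from tissues and cell types of the eye and from blood, muscle and liver. Several lists span more than 1 cell type, and some members, such as miR-21a-5p, miR-125b-5p and miR-29a-3p, are known from many tissues. The 3 sensory cluster miRNAs summed to 20.1% of A and 18.7% of B. The 14 neuronal and retinal miRNAs summed to 11.3% and 10.8%, and 12 of them had a mean share of at least 0.01%. Besides miR-9-5p, miR-181a-5p and miR-124-3p, these included miR-125b-5p at 0.912% and 1.07%, miR-181b-5p at 0.676% and 0.630%, miR-129-5p at 0.590% and 0.493%, miR-7a-5p at 0.543% and 0.471%, miR-29a-3p at 0.455% and 0.496%, miR-128-3p at 0.438% and 0.350% and miR-9-3p at 0.290% and 0.264%. miR-132-3p, an activity-dependent miRNA of neurons, was at 0.0276% and 0.0257%, and miR-29c-3p at 0.0158% and 0.0160%. The other two were below 0.01%, with 419 and 380 counts for miR-138-5p and 97 and 99 for miR-212-3p.

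The 9 miRNAs of cornea, lens and surface epithelium summed to 9.60% and 10.2%, nearly all of it miR-184-3p. miR-205-5p, a miRNA of stratified epithelia, held 0.213% and 0.318%, miR-203-3p, the keratinocyte miRNA, 0.0706% and 0.110%, and miR-31-5p 0.0740% and 0.0880%. The miR-200 family, which maintains the epithelial state, gave 0.138% and 0.239% for miR-200b-3p, 0.0943% and 0.185% for miR-200a-3p, 0.0278% and 0.0482% for miR-200c-3p, 0.0158% and 0.0340% for miR-429-3p and 0.00412% and 0.00713% for miR-141-3p. All 9 were higher in B than in A as shares, although miR-184-3p was only 1.02-fold higher. Of all 580 detected names, 355 (61.2%) had the larger share in A.

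The 7 fibroblast and smooth muscle miRNAs summed to 4.74% and 5.52%. Apart from miR-143-3p and miR-21a-5p, they were led by miR-199a-3p at 0.633% and 0.882%, whose sequence is also listed as miR-199b-3p. miR-199a-5p held 0.134% and 0.199%, miR-145a-5p, encoded beside miR-143, 0.0337% and 0.0438%, miR-10b-5p 0.0224% and 0.0369% and miR-214-3p 0.00715% and 0.00928%. The 2 arms of the endothelial miR-126a summed to 1.26% and 1.28%, with 0.0390% and 0.0457% for miR-126a-5p.

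Muscle miRNAs were present as well, at 1.06% of A and 1.70% of B over 7 names. miR-1a-3p, shared by skeletal and heart muscle, held 0.691% and 1.29%. miR-499-5p, which lies in a myosin gene, held 0.280% and 0.181%, and miR-133a-3p 0.0532% and 0.117%. miR-206-3p, which is restricted to skeletal muscle, held 0.0235% and 0.0902%, and miR-133b-3p 0.00966% and 0.0210%. The heart miRNA miR-208a-3p, with 1 and 0 counts, and miR-208b-3p, with 2 and 11, were near 0.

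Blood miRNAs were a small fraction. The red cell list summed to 0.0510% and 0.0503%. It had 2070 and 1845 counts of miR-451a and 1961 and 2562 of miR-486a-5p, which are also the counts of miR-486b-5p. miR-144-3p had 153 and 230 counts and miR-144-5p 79 and 113. The near-equal sums hide opposite directions. As a share, miR-451a was 1.27-fold higher in A, while miR-486a-5p was 1.16-fold, miR-144-3p 1.33-fold and miR-144-5p 1.27-fold higher in B. The white cell list summed to 0.0758% and 0.138%. In it, miR-146a-5p had 4501 and 9452 counts, miR-142a-5p 703 and 1543, miR-150-5p 570 and 770, miR-142a-3p 385 and 869, miR-155-5p 91 and 210, and miR-223-3p 81 and 197. The liver miRNA miR-122-5p, which served as a marker that should be low, had 117 and 100 counts, or 0.00140% and 0.00106%. miR-375-3p, known from pancreatic islets and pituitary, held 0.0324% and 0.0192%. Because these are shares of whole eyeball RNA, fewer cells of a type and less RNA per cell cannot be told apart.

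Between the 2 control libraries the shares were close. Most names at least 1.5-fold higher in B were on these lists, and most of those higher in A were not. Over detected names the median absolute log2 difference was 0.25, or 1.19-fold, and Spearman's rho was 0.990. Of the 209 names with a mean share of at least 0.01%, 13 (6.22%) were at least 1.5-fold higher in B and 8 (3.83%) at least 1.5-fold higher in A, and these 2 percentages are the background for every count of such names. Members of the lists, which were chosen with results of these data known and hold 43 of the 209 names, made up 12 of the 13 names higher in B and 2 of the 8 higher in A. All values come from 1 library against 1 library of the same group and have no replicate check.

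miR-206-3p differed the most, with 1962 counts in A and 8518 in B, a 3.84-fold higher share in B. miR-133a-3p was 2.20-fold and miR-133b-3p 2.18-fold higher in B, and miR-1a-3p 1.86-fold. Of the 5 muscle names at or above 0.01%, 4 were at least 1.5-fold higher in B, but miR-499-5p was 1.54-fold higher in A. Among the epithelial names, 5 of 8 were at least 1.5-fold higher in B, including miR-429-3p at 2.15-fold and miR-200a-3p at 1.97-fold. Both white cell names that reached 0.01%, miR-142a-5p and miR-146a-5p, were at least 1.5-fold higher in B, and of the 6 fibroblast and smooth muscle names 1, miR-10b-5p, was.

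In contrast to these, none of the 3 sensory, 12 neuronal, 2 pigment epithelium, 2 red cell and 2 endothelial names at or above 0.01% differed by 1.5-fold. The median log2 difference of B over A was 1.12 for muscle, 0.93 for white cells, 0.72 for surface epithelium and 0.46 for fibroblasts and smooth muscle, against -0.08 for the sensory cluster, -0.10 for neurons and retina and -0.02 for all 209 names. The part of differing tissue composition in these values was not tested. On the other side, miR-543-3p was 1.71-fold higher in A, miR-375-3p 1.69-fold, miR-485-3p 1.67-fold, miR-342-3p 1.64-fold and miR-34c-5p 1.59-fold.

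Levels of neighbouring hairpins were close in some clusters and far apart in others. With hairpins on 1 strand less than 10 kb apart taken as a cluster, 235 of the 1005 RefSeq hairpins fell into 70 clusters. The 3 hairpins of the cluster at chr6:30165918-30169737 took the largest share, and within it mir-183 gave 4.01-fold the counts of mir-96 in A and 3.87-fold in B, while mir-182 gave 3.06-fold and 3.11-fold. A wider gap than this lay between mir-191, at 36130 and 42953 counts, and its neighbour mir-425, at 2385 and 2383. In contrast, the neighbours mir-379 and mir-411 were close, at 8325 and 7725 counts in A and 7883 and 8033 in B. On chromosome 12, 2 neighbouring clusters in the imprinted Dlk1-Dio3 region held 50 hairpins. Their matched arms summed to 1.75% of A and 1.39% of B, and 43 of the hairpins had at least 10 matched counts in each library. Of these 43, 36 (83.7%) had the larger share in A, beside 355 of all 580 detected names (61.2%). The 580 are single mature names and the 43 are hairpins with matched arms summed, so the 2 percentages differ in unit. mir-127 alone gave 0.713% and 0.577%. Arms not matched to a single RefSeq position were left out of these sums. mir-487b thus entered with 1 and 2 counts, although both of its arms together had 466 and 369.

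The 5p arms carried most of the counts. Names ending in 5p held 69.1% of A and 67.6% of B, names ending in 3p 30.1% and 31.6%, and names without an arm 0.778% and 0.804%. By number of hairpins the excess was small. Of 802 hairpins with both arms in the table, 257 had at least 100 counts over both arms in each library. In 138 of these (53.7%) the 5p arm was above the 3p arm in both libraries, and in 118 the 3p arm was above. Only mir-335 changed sides, with 3163 5p against 3520 3p counts in A and 4175 against 3960 in B.

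Hairpins with opposite arm preferences are shown from RefSeq on GRCm38.p6, with both mature arms in capitals, the 5p arm first. mir-184 lies at chr9:89802260-89802328 (minus strand), let-7g at chr9:106178840-106178927 (plus strand), and mir-335 at chr6:30741299-30741396 (plus strand), within the span of Mest:
mir-184: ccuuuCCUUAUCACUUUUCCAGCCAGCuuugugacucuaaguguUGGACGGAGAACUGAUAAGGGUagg
let-7g: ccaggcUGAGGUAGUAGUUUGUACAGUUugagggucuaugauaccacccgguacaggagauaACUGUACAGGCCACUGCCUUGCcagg
mir-335: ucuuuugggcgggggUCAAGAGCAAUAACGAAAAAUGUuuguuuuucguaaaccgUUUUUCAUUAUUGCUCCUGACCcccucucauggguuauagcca
The 3p arm of mir-184, which starts with U, had 748674 counts in A and 861538 in B, and its 5p arm, which starts with C, had 96 and 164. The 5p arm of let-7g had 311379 and 334519 counts and its 3p arm 20 and 17. In mir-335 both arms start with U.

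Most hairpins were strongly one-sided. Arm ratios were taken as log2((5p + 0.5)/(3p + 0.5)) in each library, and their absolute mean over the libraries had a median of 5.30, or 39.4-fold. At least 10-fold excess in both libraries was found for 102 hairpins towards 5p and 78 towards 3p, together 70.0%. At least 100-fold excess was found for 46 and 47 hairpins, and at least 1000-fold for 16 and 19. Arms within 2-fold of each other in both libraries were found in 25 hairpins (9.73%). The ratio depended on the level: it had a median of 23.8-fold for 101 hairpins with 100 to 1000 counts, 31.7-fold for 90 with 1000 to 10000, and 140-fold for 66 with at least 10000. A low count bounds the ratio that can be seen, and the part of that in this order was not tested.

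These ratios repeated well between the libraries. The median absolute difference of the log2 ratio was 0.27, and Spearman's rho across the 257 hairpins was 0.994. In 31 of the 38 hairpins whose log2 ratios differed by over 1, the minor arm had at most 10 counts in both libraries, and the highest minor arm count among the 38 was 45, for mir-99a in B. A minor arm at 0 in both libraries was found in 22 hairpins, 12 without 5p counts and 10 without 3p counts. For these only a lower bound holds, at 3 counts per library. miR-328-3p was at least 5362-fold above its 5p arm in A and 5778-fold in B, and miR-192-5p was at least 2594-fold and 2925-fold above its 3p arm. miR-206-3p was at least 654-fold and 2839-fold above its 5p arm, which had no count in either library.

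**Figure D3:**
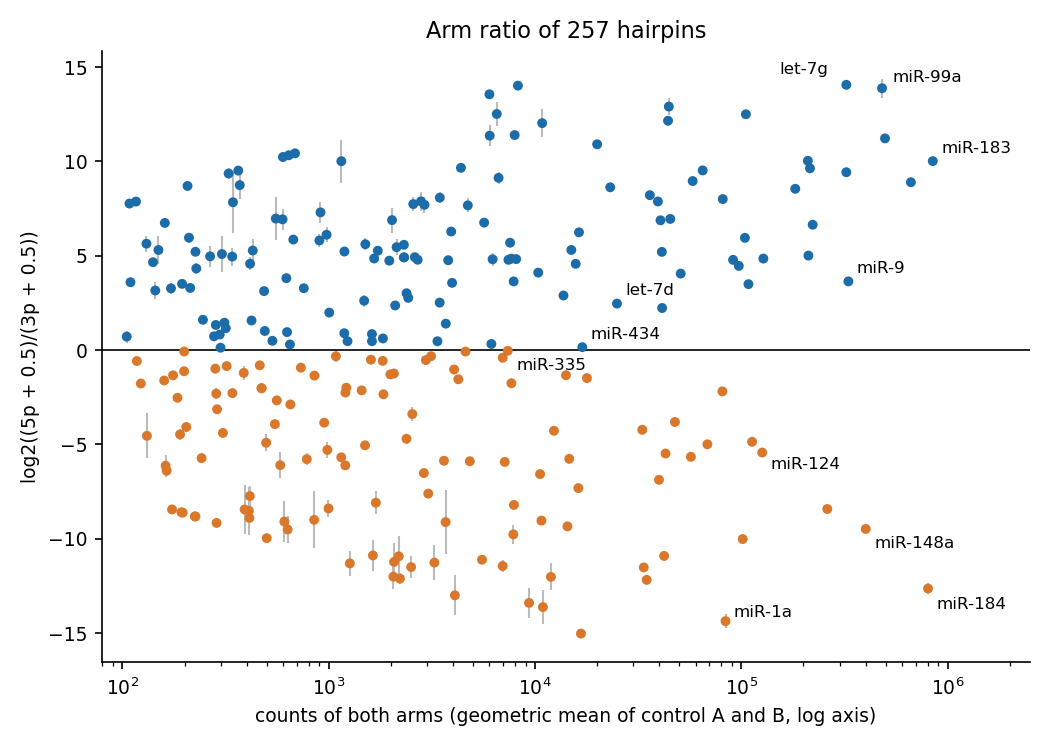
Arm ratio of 257 hairpins (y axis, log2 of 5p over 3p with 0.5 added to each) against the counts of both arms (x axis, log scale, geometric mean of control A and B); points are means of both libraries, grey lines join the 2 libraries, and the horizontal line marks equal arms. Points lie on both sides of the line, with let-7g, at a mean of 14.06, highest and mir-328, whose 5p arm had no count, lowest. The labels name a few hairpins, with let-7g among them and mir-328 not.

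Among the 193 hairpins with at least 10 counts in each arm and library, let-7g was the most 5p-sided by the mean of the libraries, at log2 ratios of 13.89 in A and 14.22 in B. mir-99a was above it in A and below it in B, with 482368 and 479094 5p counts against 22 and 45 3p counts, or 14.39 and 13.36. mir-21a had 85075 and 130016 against 12 and 26, and mir-26a 452835 and 545115 against 176 and 246. let-7i, at 184122 and 239362 against 171 and 235, and mir-183, at 833826 and 858949 against 776 and 865, both had about 1 minor strand for every 1000 major ones, at 1077-fold and 1019-fold for let-7i and 1075-fold and 993-fold for mir-183.

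The most 3p-sided was mir-184, at 7799-fold in A and 5253-fold in B. mir-101a had 12 and 10 5p counts against 32270 and 35069 3p counts, mir-29a 23 and 20 against 38041 and 46833, and mir-27b 101 and 94 against 90902 and 113160. mir-148a had 500 and 625 against 385792 and 415324, a ratio of 772-fold and 665-fold. mir-92a had 16 and 29 against 12638 and 16259. The muscle hairpin mir-1a was more extreme, with 3 and 4 5p counts against 57761 and 121667, but its minor arm was under 10 counts.

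Among hairpins with nearly equal arms, mir-434, from the imprinted region of chromosome 12, was the most abundant, with 9692 5p and 8197 3p counts in A and 8210 and 7852 in B. mir-132 had 2212 and 2308 in A and 2262 and 2424 in B. mir-145a had 2819 and 2316 in A and 4137 and 3217 in B, with the 5p arm higher in both. mir-384 had 1306 and 1689 in A and 1478 and 1797 in B, with the 3p arm higher in both. mir-708 gave 39.1% of its counts from the 5p arm in A and 46.9% in B, mir-382 gave 56.3% and 59.7%, and mir-369 43.8% and 38.1%. In each of these the reads of both strands were within 2-fold.

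The hairpin of mir-434 is shown because its arms are near-equal at the highest level of this kind. It lies at chr12:109594506-109594599 (plus strand), within the span of Rtl1, and both arms are in capitals:
mir-434: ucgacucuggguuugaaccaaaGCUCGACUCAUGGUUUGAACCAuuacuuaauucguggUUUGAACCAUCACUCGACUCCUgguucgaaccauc

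Eye and tissue marker hairpins ranged widely. The sensory cluster was 5p-sided throughout, at 460-fold and 492-fold for mir-182 and 831.5-fold and 761-fold for mir-96. mir-204 gave 87.4-fold and 114-fold more 5p than 3p, and mir-211 233-fold and 283-fold. mir-9, of which both arms are known to be active in neural tissue, was only 12.5-fold and 12.4-fold towards 5p, so that miR-9-3p had 24214 and 24882 counts. mir-124 was 43.1-fold and 43.2-fold towards 3p, and mir-126a 31.4-fold and 26.9-fold. mir-199a was 4.71-fold and 4.42-fold towards 3p, although its 3p count includes the reads of the same sequence from mir-199b. mir-142a, of white cells, had 1.83-fold and 1.78-fold more 5p than 3p.

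Hairpins whose major arms share a seed did not share the arm ratio. Only those of the 257 hairpins whose major arm has a RefSeq sequence could be placed by seed, so mir-30b and mir-30d are left out. The placed miR-30 hairpins ran from a mean log2 ratio of 2.23 to 5.95, and mir-30d, at 8.55, lies outside that span. The spans and their order thus hold for placed hairpins only. Of 11 seeds with at least 3 placed hairpins, 10 had all of these on 1 side. Taken as sizes without regard to side, the log2 ratios within a seed spanned a median of 5.36. For the same 43 hairpins the libraries differed by a median of 0.28. That value compares the libraries for each hairpin and is not a span over several hairpins. Some ends of the spans rest on few counts, as for mir-429, whose 5p arm had no count. For let-7 the ratio ran from 5.005-fold and 6.07-fold in let-7d, with 3735 and 3930 3p counts, to 15569-fold and 19678-fold in let-7g. Between them lay let-7a (22.3-fold and 21.7-fold), let-7c (28.2-fold and 29.4-fold), let-7e (80.4-fold and 71.2-fold), mir-98 (106-fold and 112-fold), let-7b (104-fold and 132-fold), let-7f (670-fold and 705-fold) and let-7i. The values of let-7a and let-7c are not independent, because let-7a-1-3p and let-7c-2-3p have 1 sequence and the same counts (3814 and 4657).

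By the size of the ratio without regard to side, and among hairpins placed by seed, the miR-29 seed gave the next widest span after let-7. mir-29a was 1654-fold and 2342-fold towards 3p, mir-29b 53.2-fold and 65.1-fold, and mir-29c 2.31-fold and 2.60-fold. Their major arms are shown with the seed in capitals:
miR-29a-3p: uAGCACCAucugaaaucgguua
miR-29b-3p: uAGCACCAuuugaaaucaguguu
miR-29c-3p: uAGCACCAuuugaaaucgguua
In mir-29c the minor arm was the larger in absolute terms, with 572 and 582 5p counts against 23 and 20 in mir-29a, although the 3p arm of mir-29c had only 1320 and 1512. In the miR-181 family, mir-181c was 5.75-fold and 5.68-fold towards 5p and mir-181d 3819.5-fold and 2767-fold, where the 3p arm of mir-181d had 2 and 3 counts. Among the miR-30 hairpins, mir-30e was 4.54-fold and 4.84-fold, mir-30a 11.5-fold and 11.03-fold, mir-30b 23.9-fold and 23.6-fold, mir-30c 64.5-fold and 59.0-fold, and mir-30d 378-fold and 371-fold towards 5p.

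The 1 seed that came from both sides was AUUGCAC, of the miR-25/32/92 family, which is linked to cell proliferation. It lay in the 3p arm of mir-92a (12638 and 16259 counts), mir-25 (7328 and 8466) and mir-92b (866 and 913), and in the 5p arm of mir-32 (1408 and 1831). Since hairpins were grouped by the seed of their major arm, that arm is the higher one by construction. With the side kept, the mean log2 ratio of 5p over 3p ran from -9.34 in mir-92a to 4.85 in mir-32. The sizes were 333-fold and 273-fold towards 3p for mir-25, 16.7-fold and 12.7-fold towards 3p for mir-92b, and 32.0-fold and 26.5-fold towards 5p for mir-32. The 4 mature strands are shown with the seed in capitals:
miR-92a-3p: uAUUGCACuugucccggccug
miR-25-3p: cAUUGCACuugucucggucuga
miR-92b-3p: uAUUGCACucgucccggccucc
miR-32-5p: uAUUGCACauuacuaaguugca

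**Figure D4:**
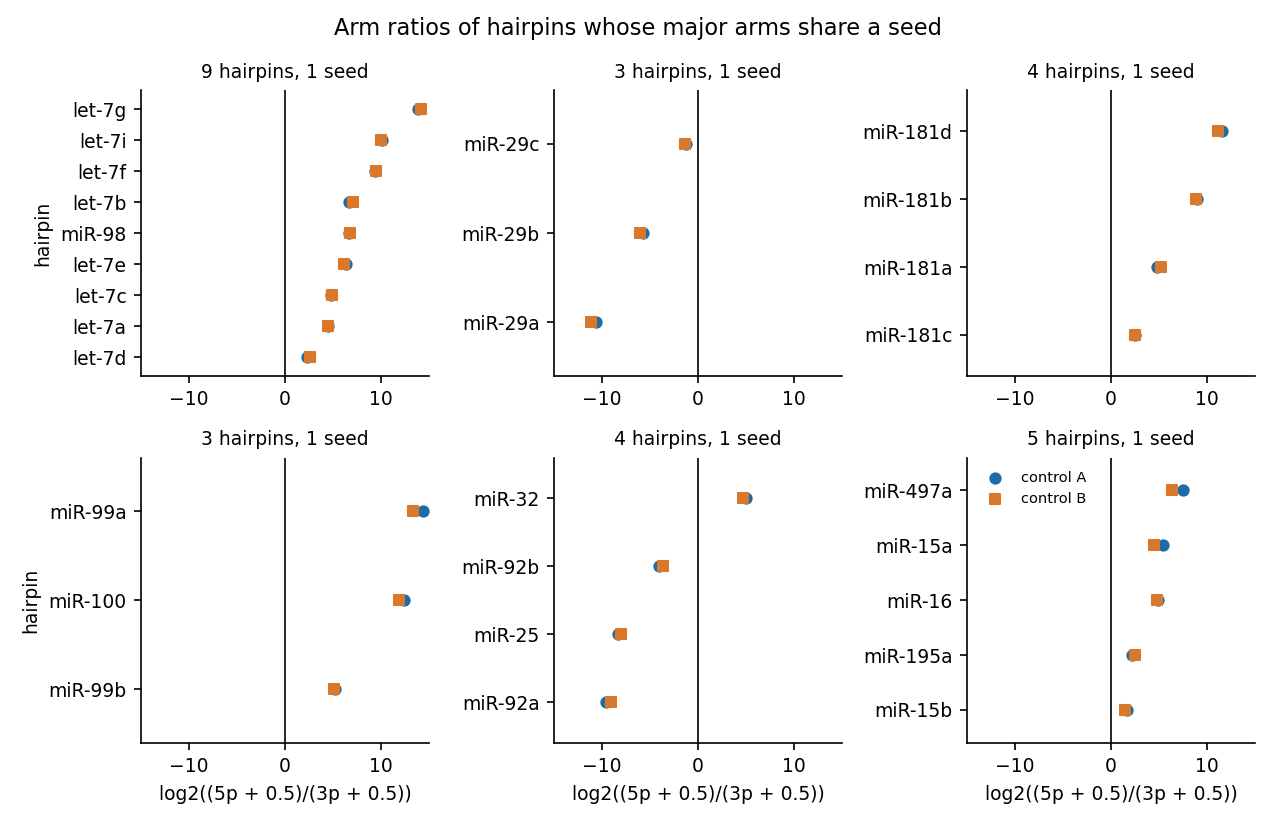
Arm ratio (x axis, log2 of 5p over 3p with 0.5 added to each) of hairpins (y axis) for control A (circles) and control B (squares). The vertical line marks equal arms. Shown are the 6 seeds with the widest span among hairpins whose major arm has a RefSeq sequence. The 2 libraries lie within 0.5 for 24 of the 28 hairpins and differ the most, by 1.11, for mir-497a, while let-7d and let-7g are 11.59 apart, and mir-32 alone lies across the line from the rest of its seed.

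The major and minor arms also differed in their first base, which the choice of hairpins did not use. For 182 hairpins with the same arm higher in both libraries, 1 position and a sequence for both arms, the major arm began with U in 98 (53.8%) and the minor arm in 34 (18.7%). C was the first base of 26 major (14.3%) and 59 minor arms (32.4%), and G of 15 and 34. In 83 hairpins only the major arm began with U and in 19 only the minor arm did. The pattern was present on both sides, with U first in 56.6% of major and 18.2% of minor arms of 99 hairpins favouring 5p, and in 50.6% and 19.3% of 83 favouring 3p. Where the mean ratio was at least 10-fold (119 hairpins) the shares were 59.7% and 13.4%, and below that (63 hairpins) they were 42.9% and 28.6%. Counting A or U in the first 4 bases, the major arm had more in 82 hairpins, the minor arm in 43, and 57 were equal. These are descriptions over hairpins, several of which are related in sequence, and no test was made.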

How the data were processed

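Small RNA counts were analysed for the 2 natural light libraries, matched by title to their columns in a table of the whole series. The deposited values are raw counts for each mature name, not scaled by the authors as far as the values show. The submitters' processing notes name the build mm10 and the tools limma, DESeq2, bcl2fastq 2.0, StringTie and HISAT2, without roles. The miRNA counter and its treatment of reads that match several names are not given in the sources used here, and the labels' library protocol describes only fragmented, rRNA-depleted RNA. Reads of 1 sequence listed under 2 names were counted under each, so totals include them more than once.

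Counts were divided by the column total (Python 3.11.15, pandas 2.3.3, scipy 1.17.1). Sequences and positions came from RefSeq (GRCm38.p6), which matched 1679 of 1978 names and 91.0% and 90.4% of the counts of A and B. Arms were paired by name, dropping a locus number carried by only 1 arm. No comparison between groups was tested, since there is 1 group; a chi-square set the counts of A against those of B. edgeR 4.0.16 in R 4.3.3 was used only for TMM scaling as an alternative. Alternatives changed the count minimum, denominator, pseudocount, loci, pairing and library. Named were the 20 largest mean shares, all list members, the 6 most 5p-sided and 6 most 3p-sided hairpins with at least 10 counts in each arm, 8 hairpins within 2-fold, the 5 names farthest apart between libraries in each direction and the 8 largest seed families. Hairpins named beyond these were chosen after their values were seen. Members and lists were chosen with earlier results of these data known. On simulated counts for 255 hairpins, with ratios less extreme than the largest observed and counting noise only, 99.6% fell on the right side. Reads that match several names were not simulated, so this checks only the calculation of the ratios.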

Additional observations from a re-analysis of the deposited data

How the results depend on the processing

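Without the most abundant miRNA, the share of the 10 largest fell from 55.2% to 53.2%, the 5p share of arm-named counts from 68.9% to 65.6%, and the let-7 family rose from 13.0% to 14.4%. Detected names numbered 896 at a minimum of 1 count and 368 at 100, against 580. Hairpins favouring 5p and 3p numbered 88 and 67 at an arm sum of 1000, against 138 and 118, and 78 favoured 3p at least 10-fold. The median absolute log2 arm ratio of 5.30 became 4.85 at an arm sum of 10, 5.73 at 1000, 5.05 with arms from 1 locus only, and 4.85 with a pseudocount of 5; with either library alone it was 5.29 to 5.46. With 2 libraries, leaving out either gives the other's own value, so this is no check of shares. Chosen after seeing the data, pairing by full names gave 122 and 109 hairpins and a median of 5.27, and counting identical sequences once gave 55.6% for the 10 largest. The median absolute log2 difference between libraries of 0.25 was 0.25 with TMM scaling and 0.21 at a minimum of 100 counts. No paired analysis was possible because only 1 group was used. Depth limits ratios wherever the minor arm has under 10 counts.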

Other observations

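Some counts appear under more than 1 name. Among detected names with a sequence, 13 pairs share a run of at least 18 bases, and in 7 of these the counts were equal within 1% in both libraries. The second names of these 7 pairs hold 1.18% of the counts of A and 1.41% of B. miR-199a-3p and miR-199b-3p, 1 sequence, both had 52906 and 83293 counts. miR-101c had 32264 and 35061 counts against 32270 and 35069 for miR-101a-3p, miR-374c-5p had 5754 and 6270 against 5757 and 6275 for miR-374b-5p, and miR-1843b-5p had 3692 and 3615 against 3698 and 3620 for miR-1843a-5p. In these pairs 1 sequence lies inside or beside the other, with the shared run in capitals:
miR-101a-3p: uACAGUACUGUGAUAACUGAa
miR-101c: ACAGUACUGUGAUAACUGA
miR-374b-5p: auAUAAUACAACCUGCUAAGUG
miR-374c-5p: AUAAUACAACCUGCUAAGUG
miR-1843a-5p: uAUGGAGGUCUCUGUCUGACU
miR-1843b-5p: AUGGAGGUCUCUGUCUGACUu
Seeds read from the annotated sequences of such a pair differ, so the same counts enter different seed families.

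By contrast, pairs with a shared run at the 5′ end and different last bases had unlike counts. miR-107-3p had 17.9% and 20.2% of the counts of miR-103-3p, and miR-27a-3p 36.0% and 42.2% of those of miR-27b-3p; the first pair is shown with the shared run in capitals:
miR-103-3p: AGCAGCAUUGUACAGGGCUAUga
miR-107-3p: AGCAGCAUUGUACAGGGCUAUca

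Most names of the table contributed little. The 1122 names with a number above 1000 had 82 detected members and held 0.282% of the counts of A and 0.238% of B, and miR-1843a-5p was the highest of them. The 856 other names had 498 detected members and held 99.7% and 99.8%. Among names without an arm, let-7j had 7012 and 10819 counts, miR-378c 6894 and 8751, and miR-484 4324 and 5410.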
